A study of Homo sapiens with 47 samples.

Results

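The subject here is 28 distal H3K27ac sites of Ishikawa cells that carried little RNA polymerase II (RNAPII). Acetylation of histone H3 at lysine 27 (H3K27ac) marks active promoters and enhancers, and p300 is one of the enzymes that deposits it. Active enhancers are often transcribed themselves, so RNAPII is found at many of them as well as at promoters. A site with H3K27ac peaks in most lists and RNAPII peaks in few therefore carries 1 sign of an active regulatory region and shows little of another.

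The sites were selected on measured values. Peaks of the 20 H3K27ac lists were merged where they shared at least 1 bp, which gave 41675 intervals, and 2849 of these had a peak in 16 or more lists. Of those, 2255 were shorter than 4000 bp and 188 had no annotated transcription start within 5 kb, and none of the 188 lay within 5 kb of a targeted locus. RNAPII peaks overlapped 28 of the 188 in at most 2 of 20 RNAPII lists, and the other 160, with RNAPII in 3 or more lists, served for comparison. These 28 and 160 were thus chosen by their H3K27ac and RNAPII peaks, and those numbers of lists describe the choice and are not findings.

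Ishikawa is a human endometrial adenocarcinoma line, and all cells here had spent at least 5 days in hormone-depleted medium before transfection of a dCas9 fusion and gRNAs, with no estrogen treatment in these libraries. dCas9 is a Cas9 that binds DNA at a gRNA target without cutting it. It was fused to VP16(10x), an array of the VP16 viral activation domain, or to p300(core), the acetyltransferase core of p300, and an HA tag on dCas9 allowed its own ChIP. The gRNAs were given as Pool 1, Pool 2 or Pool 3 (estrogen receptor binding sites, ERBSs, near MMP17, CISH, FHL2 and HES2), as Adjacent (regions next to those ERBSs) or as IL1RN (the promoter of IL1RN, the control), with 2 H3K27ac and 2 RNAPII libraries for each construct and pool. HA had 7 lists, of the ERBS, Adjacent and IL1RN gRNAs with VP16(10x) and of the ERBS gRNAs with p300(core). The fusions were delivered by transient transfection to the whole culture, and nothing states whether replicates were separate cultures, so p-values measure the spread between libraries.

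H3K27ac lists held 1805 to 32052 peaks, with a median of 25025 for VP16(10x) and 6143 for p300(core), and RNAPII lists held 16041 to 40757. Lists of peaks give no read depth, so the depth behind a value is unknown. The peak names of some libraries carry a number that is taken here as a run identifier. No label says what this number is, and H3K27ac libraries that carry it are called run 1. The peak names of VP16(10x) Pool 1 replicate 2 carry the letter that other names use for p300, and VP16(10x) Adjacent replicate 1 was labelled as also carrying IL1RN gRNAs. H3K27ac peaks stood at the starts of the epithelial and Müllerian genes KRT8, KRT18 and PAX8 in 20 lists and at those of CLDN4, EPCAM, KRT19, SOX17 and CDH1 in 11 to 19, whereas 7 markers of other cell types had 0.

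Sites are named here by the closest protein-coding gene, which is a label of place and not a statement about which gene a site acts on. A site was placed by its median summit alone, here and below, and the whole intervals were not compared with exons. Of the 28 summits, 15 lay in an intron of a protein-coding gene, 5 in an intron of a non-coding gene and 8 between genes. In an exon of those genes lay 0. Their width was 981 to 3640 bp with a median of 2630.5 bp. The closest start of any gene was at a median of 10899.5 bp and the closest protein-coding start at a median of 22419.5 bp. Chromosome 3 held 5 sites, of which the TBL1XR1 and KCNMB2 sites were the closest pair of all, 299388 bp apart.

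The sequence at the sites was read from hg19, and 3 windows of 300 bases on the plus strand are shown because they carry motifs counted over all sites. In the first, at the TGFBR2 site, capitals mark TGANTCA (N is any base, either strand), the motif of AP-1, the FOS and JUN dimer. The TANK site, the only site of the 28 with a peak in all 20 H3K27ac lists, held 3 such motifs in 600 bp around its summit, and the TGFBR2 site held 2.
TGFBR2 site, chr3:30579984-30580283: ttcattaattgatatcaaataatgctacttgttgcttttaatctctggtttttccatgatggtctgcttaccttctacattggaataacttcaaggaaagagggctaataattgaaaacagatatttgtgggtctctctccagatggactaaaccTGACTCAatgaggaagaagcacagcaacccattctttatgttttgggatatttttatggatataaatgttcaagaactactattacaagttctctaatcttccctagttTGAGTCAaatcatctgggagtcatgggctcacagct
In the next pair, capitals mark AGATAA or its complement, the motif of GATA factors. The KCNJ3 and NEK5 sites each held 2, in sequence with a GC content of 30.0% and 30.7% over the windows shown.
KCNJ3 site, chr2:156065923-156066222: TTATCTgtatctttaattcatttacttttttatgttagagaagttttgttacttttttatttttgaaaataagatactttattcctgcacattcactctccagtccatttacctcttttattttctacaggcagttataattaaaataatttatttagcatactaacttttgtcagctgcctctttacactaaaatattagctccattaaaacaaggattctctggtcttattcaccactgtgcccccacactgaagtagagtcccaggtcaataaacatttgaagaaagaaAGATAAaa
NEK5 site, chr13:52678552-52678851: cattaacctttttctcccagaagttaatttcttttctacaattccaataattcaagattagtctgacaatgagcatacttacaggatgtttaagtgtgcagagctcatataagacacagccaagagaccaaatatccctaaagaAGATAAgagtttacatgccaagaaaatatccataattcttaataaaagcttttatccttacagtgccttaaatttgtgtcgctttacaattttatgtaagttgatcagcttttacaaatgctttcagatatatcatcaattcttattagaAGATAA

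Over 600 bp around the median summit, GC content was 30.0% to 52.0% at the 28 sites, with a median of 42.7%. The median was 49.5% at the 160 distal sites with RNAPII, 63.2% at the 55 of them with RNAPII in 16 or more lists and 67.7% at 2067 promoter intervals. The ratio of observed to expected CpG had a median of 0.151 at the 28 sites, against 0.297 at the 160 distal sites and 0.823 at promoters. None of the 28 windows reached a GC content of 55% together with a CpG ratio of 0.65, whereas 24 of the 160 and 81.2% of the promoter windows did. The OSBPL10 site had the most CpGs, 20 in 600 bp, and the KCNJ3, TGFBR2 and KCNMB2 sites had 0.

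Motifs were searched on both strands of the same 600 bp, and each share is set beside that of windows of equal length. TGANTCA occurred in 6 of 28 windows (21.4%, exact 95% binomial interval 8.3% to 41%), in 30.0% of the distal sites with RNAPII, in 8.37% of promoters and in 12.1% of all 2849 recurrent intervals. AGATAA was present in 10 of 28 (35.7%), against 32 of 160 distal sites with RNAPII and 10.1% of all intervals. The palindrome TTCNNNGAA, bound by STAT factors, was present in 9 (32.1%), against 11.9% and 10.2%. GGGCGG, the GC box bound by SP1, showed the opposite order, with 3 sites (10.7%) against 35.6% of distal sites with RNAPII and 85.7% of promoters. CCGGAAG of ETS factors and AGGGGGC, a core of the CTCF motif, were in 0 of 28 windows and in 6.25% and 16.3% of the distal sites with RNAPII. AGGTCA, the core sequence of nuclear receptors, occurred in 11 windows (39.3%), close to the 37.5% of the distal sites with RNAPII. A full estrogen response element (GGTCA, 3 bases, TGACC) was in 0 of the 28, in 0 of the 160 distal sites with RNAPII and in 1 of all 2849 intervals. Its absence is thus no trait of the 28 sites. TAATCCCAG, a stretch of the Alu repeat family, was in 10 windows (35.7%, among them the CYTH3, OSBPL10 and NOX3 sites) against 19.4% of the distal sites with RNAPII and 3.19% of promoters. The motifs differ in base composition, as the sets do, and no test was made of these shares.

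HA peaks, which come from ChIP of the tag on dCas9 and which the selection did not use, were not found at the 28 sites. An HA peak overlapped 0 of the 28 sites in each of the 7 HA lists, which allows a share of up to 10.7% (counting error only). Of the 160 distal sites with RNAPII, 80 had an HA peak in at least 1 list. Of the 55 with RNAPII in 16 or more lists, 54 (98.2%) did, as did 96.4% of promoter intervals. These shares over any list are almost the same as those of 1 list, VP16(10x) ERBS replicate 2 with 30740 peaks. That list alone overlapped 80 of the 160, 54 of the 55 and 1990 of 2067 promoter intervals. In the other VP16(10x) lists the share was 32.7% to 94.5% of the 55 and 14.4% to 41.3% of the 160. In the p300(core) lists the share of the 55 was 0% and 1.82%. None of these intervals was targeted by the gRNAs, and whether an HA peak there reflects binding of the fusion was not tested.

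In single lists, the share of the 160 distal sites with an HA peak was 23.8% and 50% for the pair of VP16(10x) ERBS lists, 14.4% and 41.3% for VP16(10x) Adjacent and 21.9% for VP16(10x) IL1RN. It was 0% and 0.625% for the p300(core) ERBS lists, which hold 154 and 141 peaks against 4783 to 30740 for VP16(10x). With the ERBS pair of VP16(10x) counted as 1 library, the 28 sites minus the 160 gave -19.2 percentage points ± 17.6 (SD, n = 6 libraries). As no list had an HA peak at the 28, each difference is the share of the 160 with its sign reversed. It could not exceed 0, and it was 0 in p300(core) ERBS replicate 1. The closest HA peak of any list stood 1727 bp to 849895 bp from the sites, with a median of 63799 bp.

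**Figure D1:**
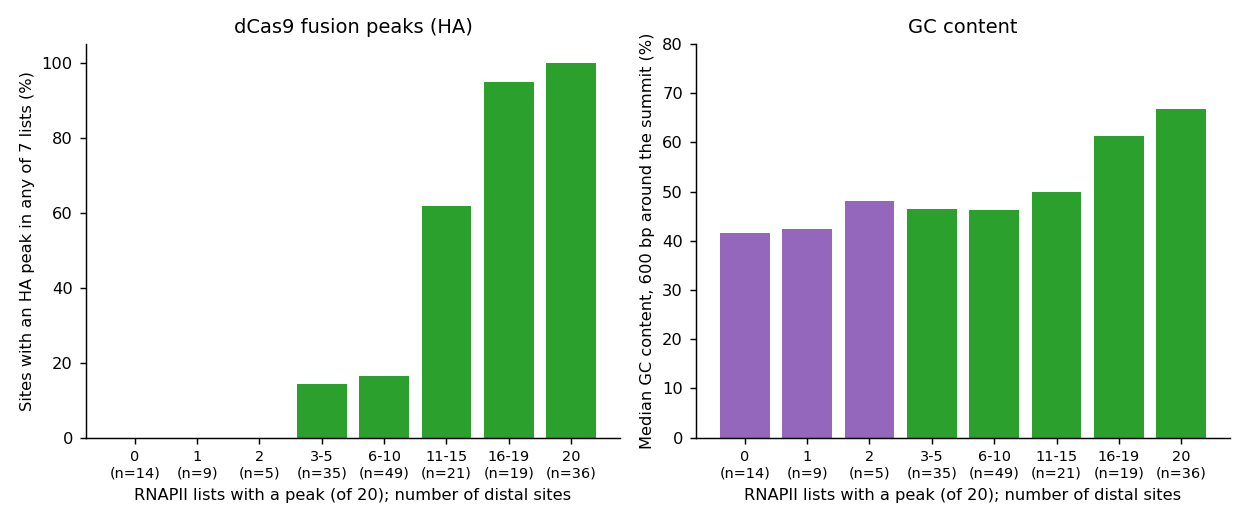
Bars give, for the 188 distal sites grouped by the number of RNAPII lists with a peak (horizontal axis, with the number of sites), the percentage with an HA peak in any of 7 lists (left) and the median GC content in percent of 600 bp around the summit (right). Purple bars are the 28 sites, with 0% HA, and green bars the other 160, which rise to 100% HA and 66.8% GC at the 36 sites with RNAPII in 20 lists. Every site counted on the left has an HA peak in VP16(10x) ERBS replicate 2.

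Across the 188 distal sites, the share with an HA peak followed the number of RNAPII lists, as the plot of HA peaks and GC content shows. It was 0 of 14 sites with RNAPII in 0 lists, 0 of 9 with 1 and 0 of 5 with 2. It was 5 of 35 (14.3%) with 3 to 5 lists, 8 of 49 (16.3%) with 6 to 10, 13 of 21 (61.9%) with 11 to 15, 18 of 19 (94.7%) with 16 to 19 and 36 of 36 with 20. Median GC content stayed between 41.7% and 49.8% up to 15 lists and was 61.3% and 66.8% in the last 2 groups. All 80 of the sites with an HA peak had one in VP16(10x) ERBS replicate 2, the HA list with the most peaks. The order over any list therefore equals that of this list, and it was not worked out for the other HA lists singly. The part of GC content or of the size of the HA lists in this order was not tested.

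RNAPII peaks at the sites are described here without a test, since the choice used them. Where no RNAPII peak is listed, the signal did not reach the threshold of the peak calls, which does not show that RNAPII was absent. The 14 sites with RNAPII in 1 or 2 lists had 19 RNAPII peaks with a fold enrichment of 3.93 to 11.7 and a median of 5.41. The highest, 11.7, was at the CYTH3 site in p300(core) Pool 1 replicate 2, and the same site had 5.92 in p300(core) Pool 2 replicate 2. The SLC20A2 site had 9.04 and 8.10, both with p300(core). The HIF3A site had 4.49 and 4.27 in the pair of VP16(10x) IL1RN libraries, and was the only one with RNAPII in both replicates of a group. The closest interval with RNAPII in 16 or more lists stood at a median of 63649.5 bp, from 1578 bp at the NPFFR1 site to 849892 bp at the MAGI2 site.

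The genes named above were largely bound by RNAPII at their own starts. The promoter of the closest protein-coding gene had RNAPII in 16 or more lists for 22 of 28 sites (78.6%), close to the 80.6% of the distal sites with RNAPII. It had H3K27ac in 16 or more lists for 9 of 28 (32.1%) against 41.3%. Promoters of NPFFR1 (a neuropeptide receptor), NOX3 (a superoxide-producing oxidase of the inner ear), MAML2 (a Notch coactivator), KCNMB2 (a potassium channel subunit) and FBXO47 had RNAPII in 0 lists. No site had a gene of the 5 lists (endometrial lineage factors, estrogen-responsive genes, AP-1 and immediate early genes, keratin and junction genes, Hippo and TEAD targets) as its closest protein-coding gene within 100 kb. Of the 160 distal sites with RNAPII, 4 did, next to GRHL2, MEIS1, JUND and ANKRD1.

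**Figure D2:**
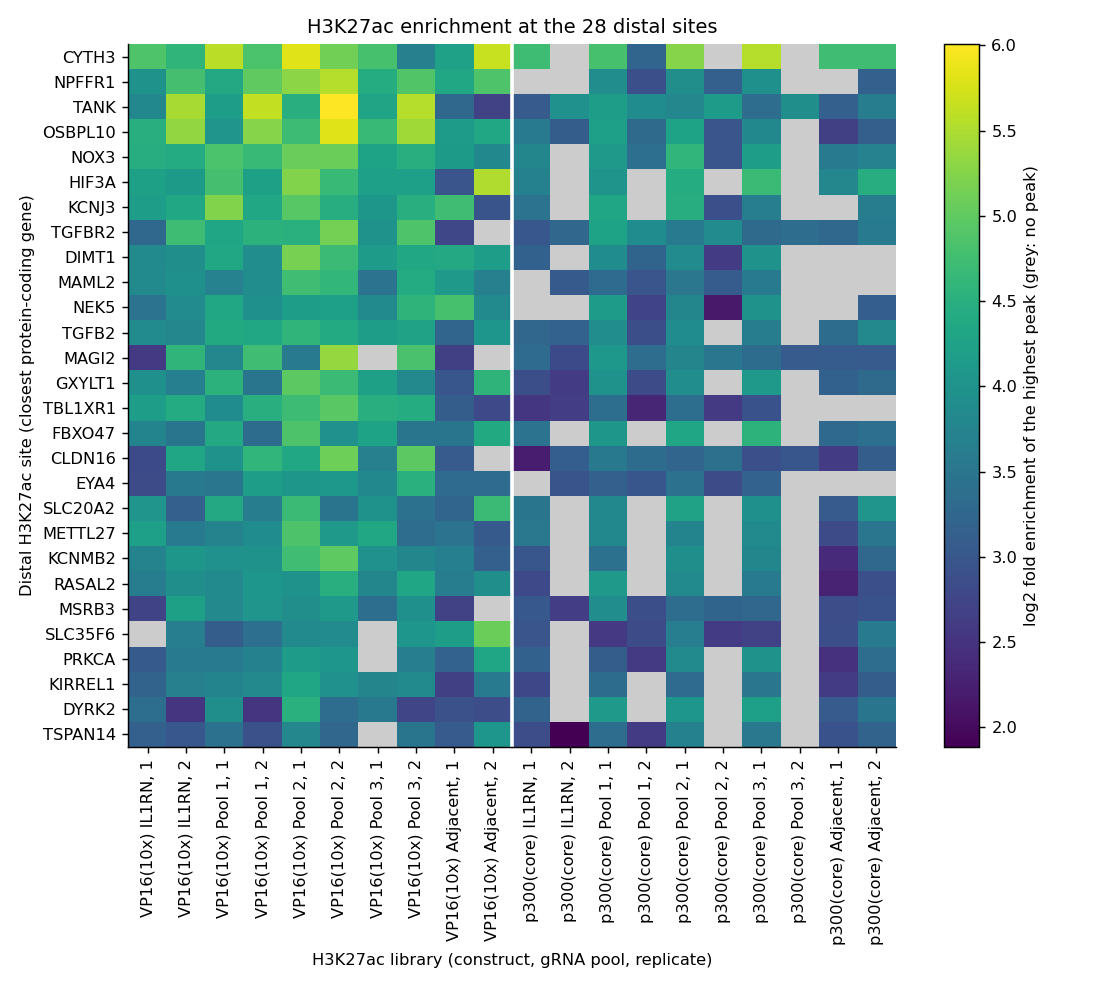
Each cell gives the log2 fold enrichment of the highest H3K27ac peak at 1 of the 28 sites (rows, by mean centred enrichment) in 1 of 20 libraries (columns, VP16(10x) left of the white line and p300(core) right), and grey marks no peak. The CYTH3 site stands at the top, and 77 of the 86 missing values lie in p300(core) libraries, 24 of them in Pool 3 replicate 2.

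The level of H3K27ac is given as the fold enrichment over background of the highest peak at a site. Over the libraries that list a peak, the median fold of the sites ranged from 9.14 at the TSPAN14 site to 28.2 at the CYTH3 site. Of 560 possible values, 86 are not listed, 77 of them for p300(core), as the map of enrichment by site and library shows. A value that is not listed did not reach the threshold of the peak calls and is not a level of 0.

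The CYTH3 site (chr7:6321913-6323936, between genes, 9638 bp from the start of CYTH3, an exchange factor for ARF GTPases) had the highest mean enrichment after centring. Its fold was 12.9 to 55.7 with a median of 29.1 in the 10 VP16(10x) libraries, and 9.39 to 46.6 with a median of 26.9 in 7 p300(core) libraries. The ranges overlap nearly whole, and the 3 p300(core) libraries without a peak were replicates 2 of IL1RN, Pool 2 and Pool 3.

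The NPFFR1 site (chr10:72017786-72020566, in an intron of NPFFR1) had a fold of 16.0 to 46.7 with a median of 28.4 in 10 VP16(10x) libraries and of 7.45 to 15.5 with a median of 11.9 in 6 p300(core) libraries. Its ranges did not overlap before any scaling between libraries. The median fold of the 566 intervals found in all 20 lists was 19.2 to 57.9 with VP16(10x) and 9.44 to 46.9 with p300(core), ranges that do overlap. Both p300(core) IL1RN libraries lack a peak at the NPFFR1 site. After centring, its difference (VP16(10x) minus p300(core)) was 1.16 with missing values at the lowest enrichment (limma adjusted p = 0.553). It was 0.12 within run 1 (limma adjusted p = 0.994) and 0.40 within the libraries with no run identifier (limma adjusted p = 0.388).

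The TANK site (chr2:161978901-161982485, in an intron of TANK-AS1 and 10934 bp from TANK, an adaptor of NF-kappaB and interferon signalling) had a fold of 6.42 to 64.3 with a median of 21.01 with VP16(10x) and of 8.39 to 18.4 with a median of 14.4 with p300(core), with 10 libraries each. Its 4 highest values, 44.2, 49.5, 64.3 and 46.8, were replicates 2 of VP16(10x) IL1RN, Pool 1, Pool 2 and Pool 3. The same-numbered replicates 1 gave 14.0, 18.4, 22.4 and 19.6, and the Adjacent pair gave 9.73 and 6.42.

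The OSBPL10 site (chr3:31981994-31984717, in an intron of OSBPL10, an oxysterol-binding protein) had the same order. Its fold was 16.4 to 55.9 with a median of 25.8 in 10 VP16(10x) libraries, where replicates 2 of IL1RN and Pools 1 to 3 gave 40.5, 38.1, 55.9 and 42.7 and replicates 1 gave 22.5, 16.4, 26.1 and 25.5. It was 6.32 to 19.4 with a median of 9.95 in 9 p300(core) libraries.

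Replicate 2 exceeded replicate 1 after centring in all 4 of these VP16(10x) groups at the TANK, OSBPL10, TGFBR2 and CLDN16 sites, 4 of the 24 sites with values in all 8 libraries (16.7%). It did so at 33 of 150 distal sites with RNAPII and at 12.5% of all recurrent intervals. Replicate 2 was the lower in all 4 groups at 0 of the 24 sites, against 13.3% of the distal sites with RNAPII, 39.0% of promoters and 32.5% of all recurrent intervals, and no test was made of these shares. The DYRK2 site lay lowest, with replicate 2 minus replicate 1 at 0.16, -0.95, -1.65 and -1.48 on the log2 scale for IL1RN and Pools 1, 2 and 3. In these 4 groups the replicate number coincides with the run identifier taken from the peak names. Replicate 1 carries it and replicate 2 does not, so the 2 cannot be told apart.

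The next sites in the order of mean centred enrichment were those of NOX3, HIF3A, KCNJ3 and TGFBR2. The NOX3 site (chr6:156102722-156105078, 325749 bp from the start of NOX3) had a median fold of 22.1 in 10 VP16(10x) and 13.4 in 8 p300(core) libraries. The HIF3A site (chr19:46774331-46776291, 24008 bp from HIF3A, a hypoxia-inducible factor) had 18.8 in 10 and 18.97 in 6. The KCNJ3 site (chr2:156065251-156068726, 499407 bp from KCNJ3, a potassium channel subunit) had 21.2 in 10 and 12.5 in 6. The TGFBR2 site (chr3:30578611-30581719, 66374 bp from the start of TGFBR2, a receptor of TGF-beta) had 22.6 in 9 and 11.1 in 10. The TGFB2 site, of rank 12 (chr1:218660420-218662446, in an intron of LINC02869, 52952 bp from TGFB2, a ligand of that receptor) had 18.7 in 10 and 11.2 in 8. In every one of these except the HIF3A site the VP16(10x) median was the higher before scaling. At the lower end, the TSPAN14 site (chr10:82264630-82267166, in an intron of TSPAN14) had a median fold of 9.46 in 9 and 8.37 in 8.

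Each of the remaining 17 sites is given with its median fold with VP16(10x) and then with p300(core). The MAML2 site (chr11:96057493-96061110, in an intron of MAML2) had 15.2 in 10 libraries and 9.29 in 6. The EYA4 site (chr6:133748500-133750697, in an intron of EYA4, a transcriptional coactivator and phosphatase) had 12.8 in 10 and 8.40 in 6. The PRKCA site (chr17:64544421-64546910, in an intron of PRKCA, the kinase PKC alpha) had 12.5 in 9 and 8.93 in 7. RASAL2, which holds the next site (chr1:178298097-178301102), encodes a GTPase-activating protein of RAS. Its fold was 15.3 in 10 and 9.80 in 6. The TBL1XR1 site (chr3:177318684-177322245, in an intron of LINC00578 and 372896 bp from TBL1XR1, a subunit of nuclear receptor corepressor complexes) had 21.6 in 10 and 6.18 in 7. This was the largest ratio of VP16(10x) to p300(core) among the medians of the 28 sites, and both p300(core) Adjacent libraries lack a peak there, which leaves the site out of the fit by construct and pool. In limma fits that could include it, its centred difference (VP16(10x) minus p300(core)) was 0.80 with missing values at the lowest enrichment (adjusted p = 0.625), 0.37 within run 1 (adjusted p = 0.994) and 0.40 within the libraries with no run identifier (adjusted p = 0.256).

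The CLDN16 site (chr3:190061975-190064801, in an intron of CLDN16, a tight junction claudin) had 20.1 in 9 and 8.66 in 10. The MAGI2 site (chr7:78910287-78913837, in an intron of MAGI2, a junction scaffold) had 18.95 in 8 and 10.1 in 10. The KIRREL1 site (chr1:157979511-157981707, in an intron of KIRREL1, an adhesion protein) had 13.5 in 10 and 9.34 in 6. The SLC20A2 site (chr8:42349327-42351140, in an intron of SLC20A2, a phosphate transporter) had 14.2 in 10 and 14.8 in 6. The SLC35F6 site (chr2:26981108-26982088, between genes) had 14.5 in 8 and 7.25 in 8. The KCNMB2 site (chr3:177621634-177625273, between genes) had 15.7 in 10 and 10.2 in 6. With the DYRK2 and HIF3A sites, the SLC20A2 site is 1 of 3 whose median was the higher with p300(core).

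The DIMT1 site (chr5:61679690-61683001, in introns of DIMT1, a ribosomal RNA methyltransferase, and of KIF2A, a kinesin) had 19.2 in 10 and 11.95 in 6. The NEK5 site (chr13:52677723-52680090, in an intron of the kinase gene NEK5) had 16.8 in 10 and 11.2 in 6. The GXYLT1 site (chr12:42405088-42407979, in an intron of a non-coding gene) had 17.1 in 10 and 9.44 in 8. GXYLT1 is a xylosyltransferase that acts on Notch, and its start lies 130535 bp away. The MSRB3 site (chr12:65823417-65826510, in an intron of MSRB3, a methionine sulfoxide reductase) had 15.2 in 9 and 8.13 in 9. The METTL27 site (chr7:73264991-73267030, between genes) had 14.03 in 10 and 12.5 in 6. The FBXO47 site (chr17:37113792-37116290, in an intron of FBXO47) had 14.5 in 10 and 13.8 in 6. Over the 28 sites, the median fold had a median of 17.0 with VP16(10x) and 10.6 with p300(core), in libraries whose overall enrichment also differs.

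To compare libraries, log2 fold enrichment was centred on the median of the 566 intervals listed in all 20 libraries, so a centred value of -1 lies 1 log2 unit below that median. The mean centred value of the 28 sites ran from -1.60 at the TSPAN14 site to 0.00 at the CYTH3 site with a median of -1.001. The SD over libraries was 0.62 to 1.23 for single sites, so neighbours in this order differ by less than that spread. Each mean covers only the libraries that list a peak, and these differ between sites. The order and the medians of sets below therefore also depend on which libraries are missing. The median over sites was -1.001 against -0.70 for the 160 distal sites with RNAPII, -0.39 for the 55 with RNAPII in 16 or more lists and -0.27 for promoters.

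**Figure D3:**
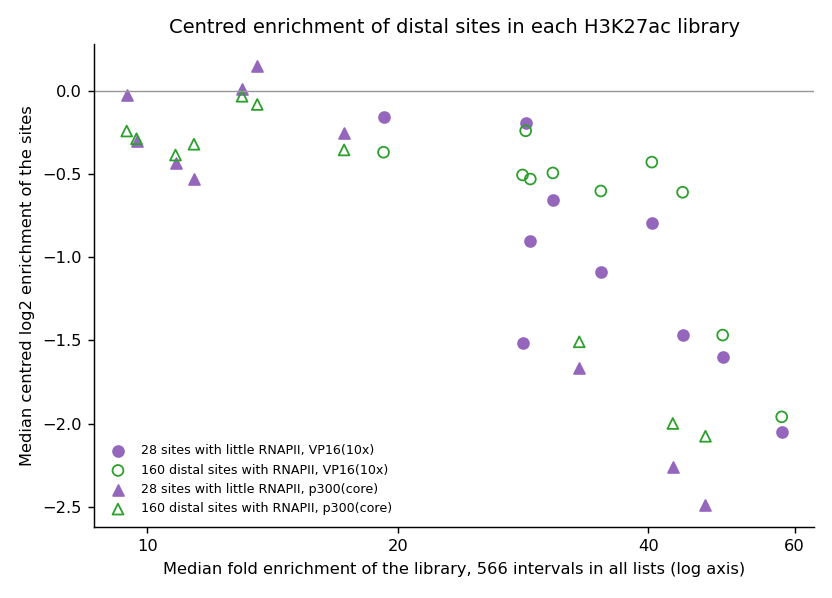
Each point is 1 H3K27ac library, with the median fold enrichment of its 566 intervals found in all lists on the horizontal log axis and the median centred log2 enrichment of the 28 sites (purple) or the 160 distal sites with RNAPII (green, open) on the vertical axis, for VP16(10x) (circles) and p300(core) (triangles). The purple points lie between -2.49 and 0.15 and are lowest in libraries of high enrichment.

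The centred level of the 28 sites was lower in libraries of high enrichment, as the plot of each library against its median enrichment shows. The subtraction itself makes such a fall wherever the fold at the sites keeps its range, because the median on the horizontal axis is the value subtracted. In the 10 libraries whose median fold over the 566 intervals was above that of the other 10, 28.9 to 57.9, the median centred value of the 28 sites was -2.49 to -0.66. In the other 10, with 9.44 to 28.5, it was -1.52 to 0.15. Without centring, the median fold of the 28 sites covered a similar range in both, 8.36 to 23.3 and 7.86 to 24.9. The distal sites with RNAPII moved the same way, from -2.08 to -0.43 and from -0.51 to -0.03. The part of library enrichment in the comparisons below was not tested.

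The H3K27ac level of the 28 sites was set against that of the 160 distal sites with RNAPII in the same library. The mean difference was smaller than its SD over libraries, which describes single libraries and is no test of the mean. The median log2 fold of the 28 minus that of the 160 was -0.19 ± 0.33 (SD, n = 20 libraries), and it was below 0 in 14 of 20. With VP16(10x) it was -0.32 ± 0.38 (below 0 in 8 of 10), and with p300(core) -0.05 ± 0.21 (below 0 in 6 of 10). Against the 55 distal sites with RNAPII in 16 or more lists it was -0.57 ± 0.82, below 0 in 13 of 20.

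The comparison of constructs asked whether H3K27ac at these untargeted sites differed between cells with VP16(10x) and with p300(core). It was fitted with limma over the 2444 of 2849 recurrent intervals that had a peak in each of the 10 groups, and 22 of the 28 sites could be tested. The DIMT1, EYA4, MAML2 and TBL1XR1 sites lacked a peak in both p300(core) Adjacent libraries, and the NEK5 and NPFFR1 sites in both p300(core) IL1RN libraries. At a Benjamini-Hochberg adjusted p of 0.05, 0 of 22 sites were called higher and 0 lower with VP16(10x), and over all intervals tested 0 of 2444 (0%) were called in each direction. At an unadjusted limma p of 0.05, 2 of 22 sites and 148 of 2444 intervals passed.

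**Figure D4:**
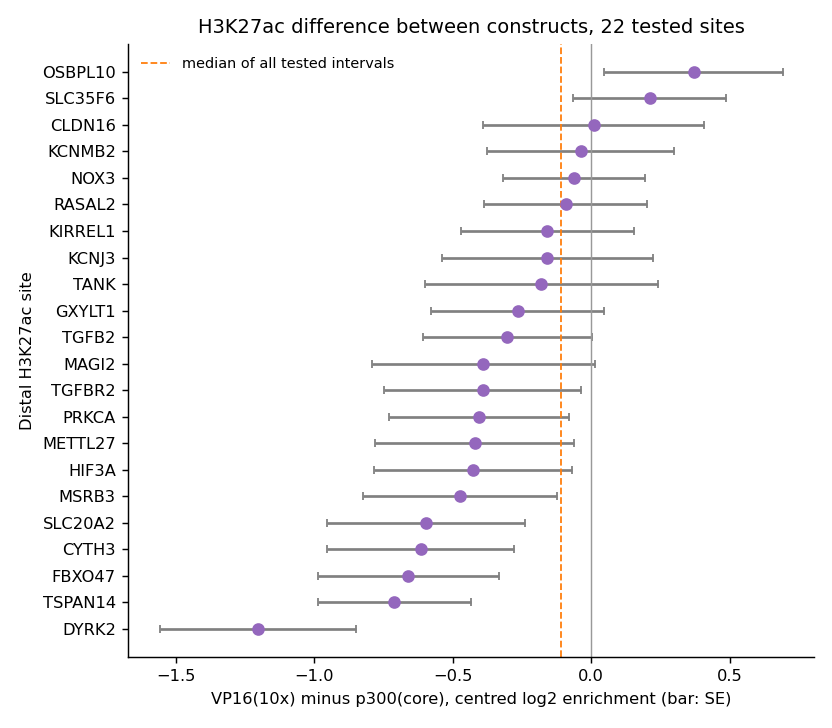
Points give the centred log2 enrichment with VP16(10x) minus that with p300(core) for the 22 sites that could be tested, and bars are the SE of limma. The values run from -1.20 at the DYRK2 site to 0.37 at the OSBPL10 site, 19 of 22 lie below 0, and the dashed line marks the median of all tested intervals, -0.11.

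The differences of the 22 sites, VP16(10x) minus p300(core) on the centred log2 scale, had a median of -0.35 against -0.11 over all intervals tested and -0.06 at the distal sites with RNAPII. The plot of construct differences shows 19 below 0 and 3 above, with SEs of 0.26 to 0.42. The largest was at the DYRK2 site (chr12:68110230-68111519, in an intron of LINC02421, 64981 bp from the kinase gene DYRK2), -1.20 ± 0.35 (SE, limma adjusted p = 0.699). Its fold was 5.66 to 22.5 with a median of 8.85 in 10 VP16(10x) libraries and 8.39 to 18.5 with a median of 13.9 in 6 p300(core) libraries, and the ranges overlap. The TSPAN14 site followed at -0.71 ± 0.28 (SE, limma adjusted p = 0.699). The CYTH3 site had -0.62 ± 0.34 and the highest value, at the OSBPL10 site, was 0.37 ± 0.32 (SE, limma adjusted p = 0.772). The DYRK2 and TSPAN14 sites were the 2 at an unadjusted p under 0.05.

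The direction of this median depended on the libraries and on the treatment of missing peaks. Without the 7 libraries that list fewer than 8782 peaks, 6 of which are p300(core), the median of the 28 sites was 0.59 against 0.13 over all intervals. With missing values set to the lowest enrichment of the library it was 0.05 against 0.17. Within run 1 (5 VP16(10x) and 6 p300(core) libraries) it was -0.27 against 0.00, with 0 of 28 called by limma. Within the 9 libraries with no run identifier it was -0.45 against 0.01, and limma called the OSBPL10 site higher (log2 0.64) and the SLC35F6 (-0.93), TSPAN14 (-0.80) and EYA4 (-0.69) sites lower with VP16(10x), of 17 tested. Over all 1820 intervals of that fit, 22 (1.21%) were called higher and 64 (3.52%) lower. These sites were named after their values were seen.

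The comparison of gRNA pools asked how much H3K27ac at the sites varied between libraries that received different gRNAs, none of which targets them. In a limma F test over the 8 contrasts of a pool with the IL1RN control of the same construct, 0 of 22 sites were called at an adjusted p of 0.05, with adjusted p from 0.491 to 0.819, and 0 of 2444 intervals (0%) were. At an unadjusted limma p of 0.05, 11 of 22 sites and 238 of 2444 intervals (9.74%) passed. This count of sites moved both ways with the setting. It was 0 of 22 without centring, 0 of 22 when centred on the distal sites, and 1 of 22 without p300(core) Adjacent replicate 1. With quantile normalization 6 of 22 sites passed, beside 5.89% of all intervals, and with the replicate block 16 of 22, beside 14.7%. Without p300(core) IL1RN replicate 2 it was also 16 of 22, beside 16.8%. For the pool differences that differ between constructs, limma also called 0 of 22 sites and 0 of 2444 intervals (0%).

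The centred level stood above IL1RN for Pools 1 to 3 in replicate 1 and hardly in replicate 2. With p300(core), the median over the sites with values was 2.30, 2.05 and 2.30 log2 units above IL1RN for Pools 1, 2 and 3 in replicate 1, with all 24 sites above 0 in each. In replicate 2 it was 0.14 over 12 sites, 0.33 over 9 and 0.23 over 4. With VP16(10x), it was 0.78, 2.01 and 1.88 in replicate 1 and -0.19, 0.05 and 0.07 in replicate 2. The Adjacent pool did not share this order. Its median against IL1RN was -0.28 and -1.33 with p300(core), and 0.79 and -0.57 with VP16(10x), in replicates 1 and 2. The 160 distal sites with RNAPII gave 2.104, 1.84 and 2.23 with p300(core) and 0.42, 1.77 and 1.68 with VP16(10x) in replicate 1. At promoters the same differences were below 0, at -0.74, -0.26 and -0.66 with p300(core) and -0.13, -0.78 and -0.77 with VP16(10x). Without centring, the median fold of the 28 sites in replicate 1 rose less. With p300(core) it was 8.93 for IL1RN and 15.03, 14.45 and 13.09 for Pools 1, 2 and 3. With VP16(10x) it was 14.00 for IL1RN and 16.21, 24.94 and 17.25. The median subtracted in centring was lower in these pools than in IL1RN, which raises the centred values. Replicate 1 of IL1RN had the highest median enrichment of the VP16(10x) libraries, 57.9-fold over the 566 intervals, and 42.8-fold with p300(core), against 13.0-fold to 17.2-fold in replicate 1 of Pools 1 to 3 with p300(core). These comparisons share their IL1RN libraries and match replicates by number, which the labels do not pair. The differences between pools are of the order of those between replicates.

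Limits of the choice were close to many sites. Of the 28, 16 had a peak in exactly 16 H3K27ac lists, 3 in 17, 5 in 18, 3 in 19 and 1 in 20, and 9 further sites that met the other limits had 15. RNAPII lists numbered 0 for 14 sites, 1 for 9 and 2 for 5, and 11 distal sites had 3. The widest site was that of KCNMB2 (3640 bp) and the next interval outside, near GCNT1, was 4014 bp wide. The closest start stood 5064 bp from the SLC35F6 site, and the first site outside, near NFE2L2, was 4855 bp from a start.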

How the data were processed

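H3K27ac, RNAPII and HA ChIP-seq peak lists (47 lists) were analysed, and the table of 23 regions was used only for the positions of the 19 targeted loci. The authors aligned reads to hg19 with Bowtie, kept reads with 1 best location and removed duplicates. The submitters' processing notes name Bowtie 1.1.2, SAMtools, bedtools and MACS2 2.1.0.20140616, and the program that called the peaks is not given in the sources used here. Per the file headers and values, the deposited fold enrichment is a ratio over background and the deposited -log10 p-value is at least 10.0007 in every list. The table's signal values, deposited by the authors after normalization, were not used.

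Peaks were merged and annotated with GENCODE starts on hg19. For each interval the highest fold per library was taken as log2, centred and fitted with limma 3.58.1 (R 4.3.3), 1 mean per construct and pool, missing where no peak is listed, with Benjamini-Hochberg adjustment over all intervals. The fit was checked against simulated data. The 28 sites, the gene lists and the motifs were chosen with earlier results of these data known. Sites described first are the 8 with the highest mean centred enrichment, those called by a test (0), those with an HA peak in most HA lists (0), those near a gene of the fixed lists (0) or with an estrogen response element (0), and those at the limits of the rule. The other sites are given in brief, and the windows shown were chosen after their values were seen. Motif and HA shares have no test. Of the markers fixed for other cell types, PECAM1 did not match the annotation, and of the Hippo list 12 of 14 symbols did. Alternatives were other scalings, treatments of missing peaks, thresholds, overlaps and windows, a run or replicate term, and leaving out each library. Some items, among them a marker and the sequences of some sites, are not reported here.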

Additional observations from a re-analysis of the deposited data

How the results depend on the processing

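The number of sites by the rule was 28, 27 with peaks of -log10 p of 15 or more (24 shared) and 34 with protein-coding starts alone. It was 44 with an RNAPII overlap of at least 200 bp, 1 with a peak in all 20 H3K27ac lists and 14 with RNAPII in 0 lists. Without 1 library it was 12 to 28, since 80% of 19 lists still means 16 lists and 10% of 19 RNAPII lists means 1, so the rule is stricter then. In the construct fit, 2 of 22 sites (OSBPL10 and CLDN16, both higher with VP16(10x), named after their values were seen) were called without centring, where the median of all intervals rose from -0.11 to 0.79 and 718 of 2444 intervals (29.4%) were called higher. The count was 4 of 17 within the libraries with no run identifier, where 86 of 1820 intervals (4.73%) were called, and 0 under the other settings run, with 0 to 0 called when 1 library was left out (4 to 22 sites testable). The fit without the libraries of few peaks used an additive model of construct and pool. In the pools test, 2 of 28 sites (DIMT1 and TBL1XR1, likewise named) were called when missing values were set to the lowest enrichment together with the replicate block, where 38 of 2849 intervals (1.33%) were called, and 0 under the other settings run, again 0 to 0 without 1 library. The replicate block alone left both counts at 0. The replicate numbers do not pair the libraries by the labels, and the deviations of same-numbered replicates correlated between groups at -0.50 to 0.93 over 566 intervals (above 0.1 in 24 of 45 pairs of groups). 16 of 20 libraries correlated best with one of their own number. The 2 replicates of a group have opposite deviations from their mean, so their matches mirror each other and the 20 are not independent. The runs, the additive model, the centring on distal sites and the combined setting were chosen after seeing the data. The HA difference of -19.2 percentage points was -43.6 against the 55 distal sites with RNAPII in 16 or more lists, and -23.0 to -14.8 without 1 library. The H3K27ac difference of -0.19 was -0.57 against the same 55, and -0.21 to -0.14 without 1 library. With intervals in all 20 lists it could not be computed, as 1 site is left. The share of sites with TGANTCA was 50% in 1000 bp around the summit (44.4% of distal sites with RNAPII, 15.3% of promoters), 35.7% in 600 bp around the midpoint and 21.4% in 600 bp around the summit.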
